A study of Mus musculus with 7 samples.

Results

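The mouse mitochondrial genome holds 37 genes: 13 protein genes, 22 tRNA genes and 2 rRNA genes. All 37 were found among the 48526 genes of the deposited table by their symbols, which begin with mt-, with no filter on value. By the annotation, 28 lie on the plus strand of the reference (12 protein genes, 14 tRNA genes and both rRNA genes) and 9 on the minus strand (mt-Nd6 and 8 tRNA genes).

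RNA of mouse brain was sequenced in 7 libraries, all from animals of 24 months that are labelled V1SSV2 and DT Venus, so the controls carry the same constructs. In the study these are α-synuclein fused to fragments of the fluorescent protein Venus, which become fluorescent when the fusion proteins meet. The 4 libraries named on carry the label Glucose and the 3 named off carry the label Dox, so doxycycline and the state of the constructs cannot be told apart. Below, rose and fell describe on relative to off and do not say which of these groups changed. For the promoter, the brain region and whether each library is a separate animal, nothing is stated in the sources used here. The p-values therefore measure the spread among these libraries only, which may be technical. The deposited unit is the regularized logarithm (rlog, a log2 scale), whose values pull low genes towards their mean and so understate their differences. Depth per library is unknown.

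Mitochondrial DNA is transcribed from promoters in its control region into long RNAs of each strand, and most of the tRNAs lie between the other genes, where they are cut out to release the rRNAs and mRNAs. The mRNAs encode core subunits of respiratory complexes I, III and IV and of ATP synthase, and the rRNAs and tRNAs serve their translation inside the organelle. The minus strand holds few genes, so most RNA made from its promoter is broken down. Brain depends heavily on this system for ATP.

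The sequences that bear on the results follow, 5′ to 3′ on the strand of each gene, from GENCODE M21 transcripts on GRCm38, the build in the submitters' processing notes. The genes mt-Nd5 (chrM:11742-13565, plus) and mt-Nd6 (chrM:13552-14070, minus) run towards each other and share 14 bases at their 3′ ends. Their last 50 bases are shown, with the shared bases in capitals, because mt-Nd6 is the member with the largest difference and its neighbour lies on the other strand.
mt-Nd5: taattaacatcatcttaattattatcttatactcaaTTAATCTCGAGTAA
mt-Nd6: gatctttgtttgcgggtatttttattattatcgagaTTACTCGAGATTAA

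The tRNA genes mt-Tp for proline (chrM:15356-15422, minus) and mt-Tq for glutamine (chrM:3772-3842, minus) are shown whole because their values also rose. The libraries were made with poly(A) selection, and whether values of tRNA genes come from the tRNAs or from longer RNA was not tested. The gene mt-Tt for threonine (chrM:15289-15355, plus) is shown because it ends where mt-Tp begins, with 0 bases between them, and lies on the other strand.
mt-Tp: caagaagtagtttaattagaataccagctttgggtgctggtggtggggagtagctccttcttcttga
mt-Tq: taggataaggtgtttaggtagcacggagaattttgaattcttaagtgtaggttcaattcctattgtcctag
mt-Tt: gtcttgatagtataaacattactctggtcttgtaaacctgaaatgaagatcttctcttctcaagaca

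Parts of mitochondrial DNA have also been copied into the nuclear genome, and reads that match both places may be counted for neither. A stretch of 60 bases of mt-Nd3 (chrM:9459-9518) is shown beside its nuclear copy Gm28438 (chr1:24613060-24613119, minus), and one of mt-Nd6 (chrM:13737-13796) beside Gm11408 (chr4:80003581-80003640, minus). Capitals mark bases at which the copy differs. The pairs show an almost identical copy and one that has drifted: over the bases compared, Gm28438 differs from mt-Nd3 at 1 of 345 and Gm11408 from mt-Nd6 at 33 of 519.
mt-Nd3: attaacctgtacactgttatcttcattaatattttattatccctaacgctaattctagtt
Gm28438: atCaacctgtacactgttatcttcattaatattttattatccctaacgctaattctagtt
mt-Nd6: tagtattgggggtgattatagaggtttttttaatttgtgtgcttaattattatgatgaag
Gm11408: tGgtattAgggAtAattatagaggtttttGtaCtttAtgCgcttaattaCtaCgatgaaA

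Levels of the protein genes fell into very unequal classes. Means over the 7 libraries lay between 17.03 and 19.30 for 6 of the 13: mt-Co1, the catalytic subunit of cytochrome c oxidase, mt-Cytb, the cytochrome b of complex III, and the complex I subunits mt-Nd1, mt-Nd2, mt-Nd4 and mt-Nd5. Of the 10 highest genes in the whole table, 8 were these and the rRNAs mt-Rnr1 and mt-Rnr2, and mt-Co1 ranked 1. The minus-strand gene mt-Nd6, also of complex I, had a mean of 11.46. The other 6 lay between -2.09 and 3.54: mt-Co2, mt-Atp8, mt-Atp6, mt-Co3, mt-Nd3 and mt-Nd4l. Per length (rlog minus log2 of the length in kilobases) the level was 18.67 for mt-Co1, 18.04 for mt-Cytb, 17.99 for mt-Nd1, 17.35 for mt-Nd2, 16.65 for mt-Nd5, 16.56 for mt-Nd4 and 12.40 for mt-Nd6. The rRNAs, in libraries made with poly(A) selection, had levels per length of 16.80 (mt-Rnr1) and 16.74 (mt-Rnr2).

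**Figure D1:**
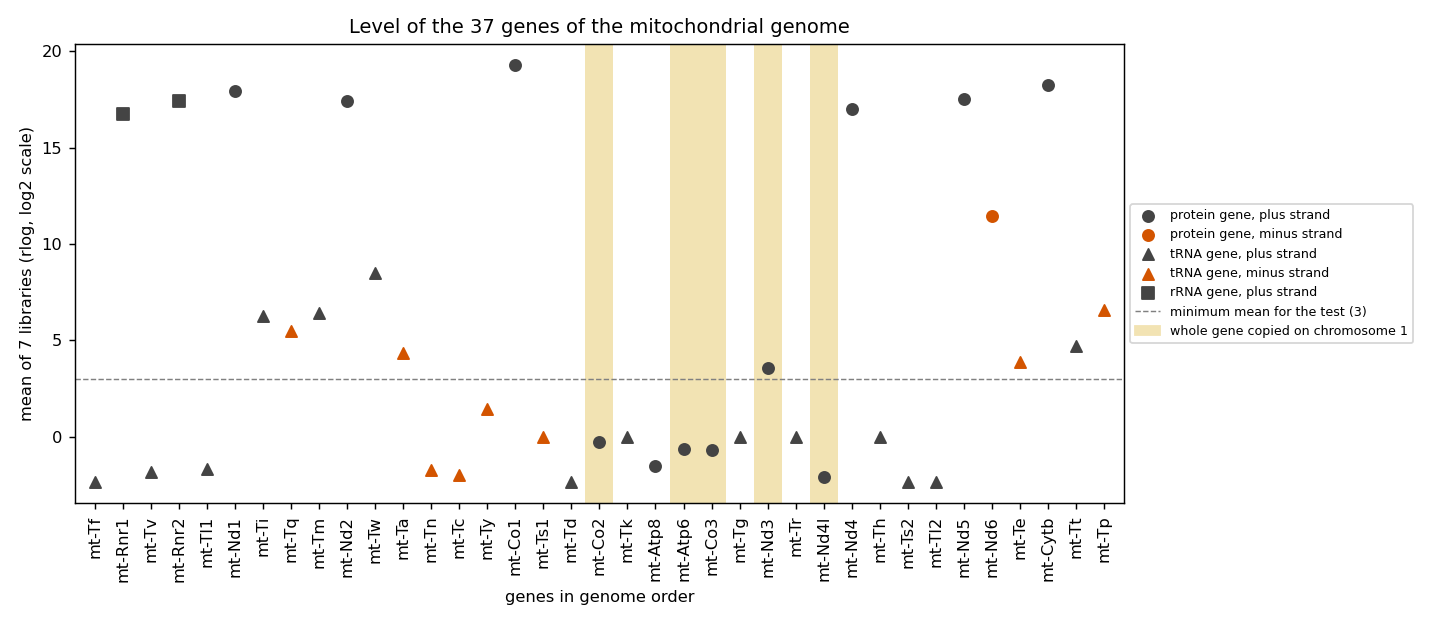
Mean rlog value over the 7 libraries (y axis, log2 scale) of each of the 37 genes in genome order (x axis), with strand by colour and gene type by symbol. The 6 protein genes between mt-Ts1 and mt-Nd4l lie at 3.54 or below while 6 other protein genes lie at 17.03 or above, and shading marks genes with an annotated copy over their length on chromosome 1.

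The low protein genes form a single block. From mt-Ts1 to mt-Nd4l (chrM:6870-10173) there are 11 genes, 6 protein genes and 5 tRNA genes, and 1 of them, mt-Nd3, reached the minimum level for testing. A search with blastn for nuclear genes matching the mitochondrial genes at 90% identity or more over 80% or more of a transcript found 15, of which 7 lie together on chromosome 1 (chr1:24611535-24616197). In 5 of those 7 the identity was 100%: Gm28661 (mt-Co2), Gm10925 (mt-Atp6), Gm28437 (mt-Co3), Gm10222 (mt-Nd4l) and Gm28439 (part of mt-Nd4). Gm29216, a copy of part of mt-Co1, had 99.8% and Gm28438 (mt-Nd3) 99.7%.

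The share of each gene's 50-base windows found unchanged in an annotated nuclear transcript was highest in the low protein genes, apart from mt-Atp8. It was 100% for mt-Co2, 99.9% for mt-Co3, 99.5% for mt-Atp6, 98.8% for mt-Nd4l and 98.0% for mt-Nd3. It was 62.2% for mt-Nd4, 51.1% for mt-Co1, 8.19% for mt-Nd2, 7.61% for mt-Nd5 and 0% for mt-Nd1, mt-Nd6 and mt-Cytb. The gene mt-Atp8 had 0%, since no annotated transcript covers it, but it lies between mt-Co2 and mt-Atp6, whose copies neighbour each other on chromosome 1.

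Copies on chromosome 1 were low too, with means between -0.76 and 1.99, so neither place carried the level of the adjoining mitochondrial genes. The highest copies lie on chromosome 2: Gm13341 (mt-Co2, 95.9% identity) at 6.06 and Gm13340 (mt-Co1, 97.6% identity) at 5.95. How reads that match several places were counted was not given in the sources used here, and its part in the low values was not tested. No statement about on and off can be made from these values for mt-Co2, mt-Atp8, mt-Atp6, mt-Co3 and mt-Nd4l, whose library values are nearly constant.

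**Figure D2:**
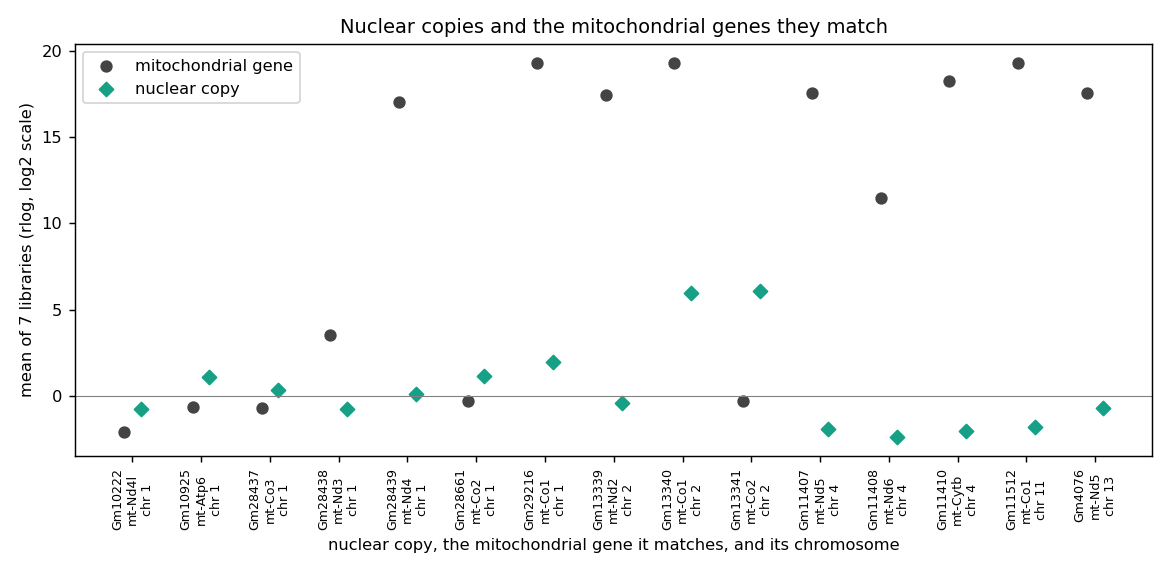
Mean rlog value over the 7 libraries (y axis, log2 scale) of 15 nuclear copies (diamonds) and of the mitochondrial genes they match (circles), by chromosome of the copy (x axis). The 7 copies on chromosome 1 lie between -0.76 and 1.99, and Gm13341 and Gm13340 on chromosome 2 lie at 6.06 and 5.95.

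Of the 37 genes, 18 had a mean of 3 or more over all 7 libraries and were tested with limma among 17896 genes: 8 protein genes, 8 tRNA genes and both rRNA genes. Just inside that minimum was mt-Nd3 at 3.54, and just outside was mt-Ty at 1.46. Of the 19 genes not tested, 5 (mt-Ts1, mt-Tk, mt-Tg, mt-Tr and mt-Th) are listed at 0 in every library and 14 had means between -2.37 and 1.46. Differences between on and off among the 19 did not exceed 0.015 in size, as the transformation leaves little at such levels.

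With on against off, 3 of the 18 tested genes rose, mt-Nd6, mt-Tp and mt-Tq, and 1 fell, mt-Nd3. The other 14 did not pass the threshold of 0.05 for the limma p adjusted over all genes. Over all 17896 tested genes 2.6% were called, 0.816% higher and 1.79% lower. The genes that rose all lie on the minus strand, where 5 of 9 genes were tested, and the gene that fell is 1 of 13 tested on the plus strand. The median difference was 0.27 over the 5 minus-strand genes and 0.02 over the 13 plus-strand genes, against 0.00 over all genes tested. The minus-strand median is the value of mt-Tq alone, and the 5 genes ran from -0.01 (mt-Ta) to 0.71 (mt-Nd6).

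**Figure D3:**
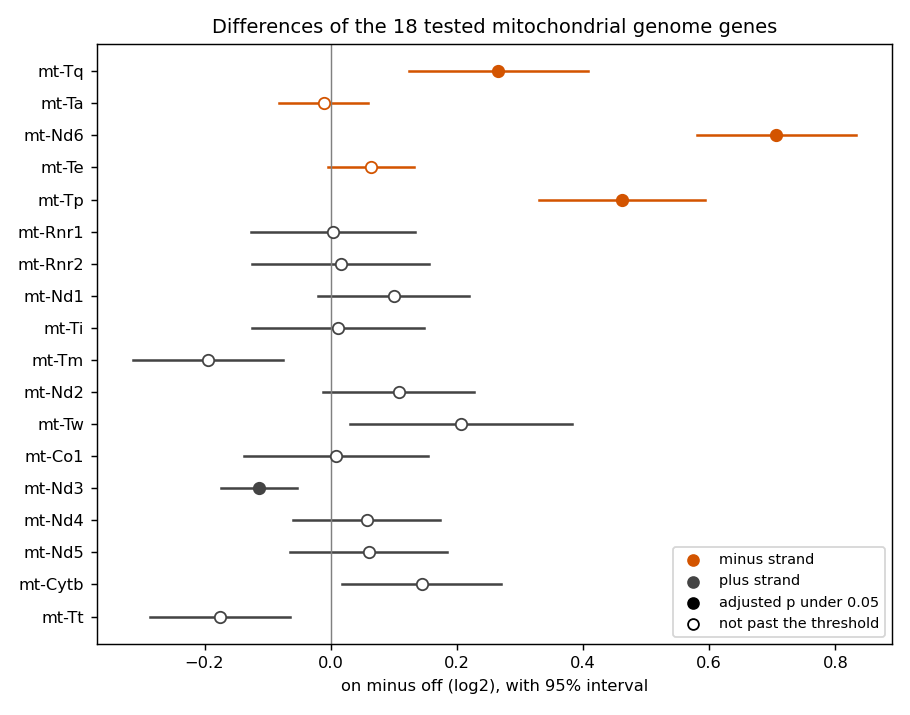
Difference of on minus off (x axis, log2) with its 95% interval from limma for the 18 tested genes (y axis), minus-strand genes at the top. Filled points passed the threshold: mt-Tq at 0.27, mt-Nd6 at 0.71, mt-Tp at 0.46 and mt-Nd3 at -0.11.

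The gene mt-Nd6 encodes a membrane subunit of complex I and is the sole protein gene of its strand. Its rlog value was 11.72, 11.74, 11.80 and 11.77 in on replicates 1 to 4 and 11.10, 11.19 and 10.87 in off replicates 1 to 3. The groups did not overlap, and the on libraries lay closer together than the off libraries. The difference was 0.71 ± 0.06 (SE; 95% interval 0.58 to 0.83; limma adjusted p = 7.71e-05), or 1.63-fold, higher in 4 of 4 on libraries. It was between 0.62 and 0.78 with any library left out, 0.62 being the value without off replicate 3, and passed each time. On replicate 1 lay among the off libraries on the main axis of variation of all genes (-4.10, off -8.64 to -3.56, other on libraries 7.19 to 9.15), but its mt-Nd6 value lay with the on libraries.

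The gene mt-Tp, for the proline tRNA, is the minus-strand gene nearest the control region. Values were 6.64, 6.85, 6.85 and 6.81 in on replicates 1 to 4 and 6.37, 6.35 and 6.26 in off replicates 1 to 3. The groups did not overlap, and on replicate 1 was nearest the off libraries. The difference was 0.46 ± 0.06 (SE; 95% interval 0.33 to 0.59; limma adjusted p = 0.00215), or 1.38-fold, and stayed between 0.43 and 0.51 and past the threshold with any library left out.

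The gene mt-Tq, for the glutamine tRNA, lies farthest from mt-Tp along the minus strand. Values were 5.61, 5.45, 5.81 and 5.60 in on replicates 1 to 4 and 5.39, 5.34 and 5.32 in off replicates 1 to 3. The groups did not overlap, with on replicate 2 only slightly above off replicate 1. The difference was 0.27 ± 0.07 (SE, limma adjusted p = 0.0493). Leaving out any of 5 libraries ended the call: on replicate 3 (adjusted p = 0.137), on replicate 4 (0.120), off replicate 1 (0.0802), off replicate 2 (0.204) or off replicate 3 (0.166).

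The remaining minus-strand genes tested were low and did not pass. The gene mt-Te, for the glutamate tRNA, follows mt-Nd6 directly on the side of the control region, and had values of 3.88, 3.86, 3.90 and 3.93 in on replicates 1 to 4 and 3.80, 3.87 and 3.82 in off replicates 1 to 3. These overlap, and the difference was 0.06 ± 0.03 (SE, limma adjusted p = 0.267). The gene mt-Ta, for the alanine tRNA, had 4.36, 4.31, 4.36 and 4.33 in on and 4.33, 4.36 and 4.36 in off, a difference of -0.01 ± 0.03 (SE, limma adjusted p = 0.880). From the control region inwards, the differences on this strand therefore ran 0.46 (mt-Tp), 0.06 (mt-Te), 0.71 (mt-Nd6), -0.01 (mt-Ta) and 0.27 (mt-Tq). Lower levels are drawn more strongly towards their mean by the transformation, so sizes at about 4 cannot be set against that at 11.46. An order along the strand can therefore not be read from these values.

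**Figure D4:**
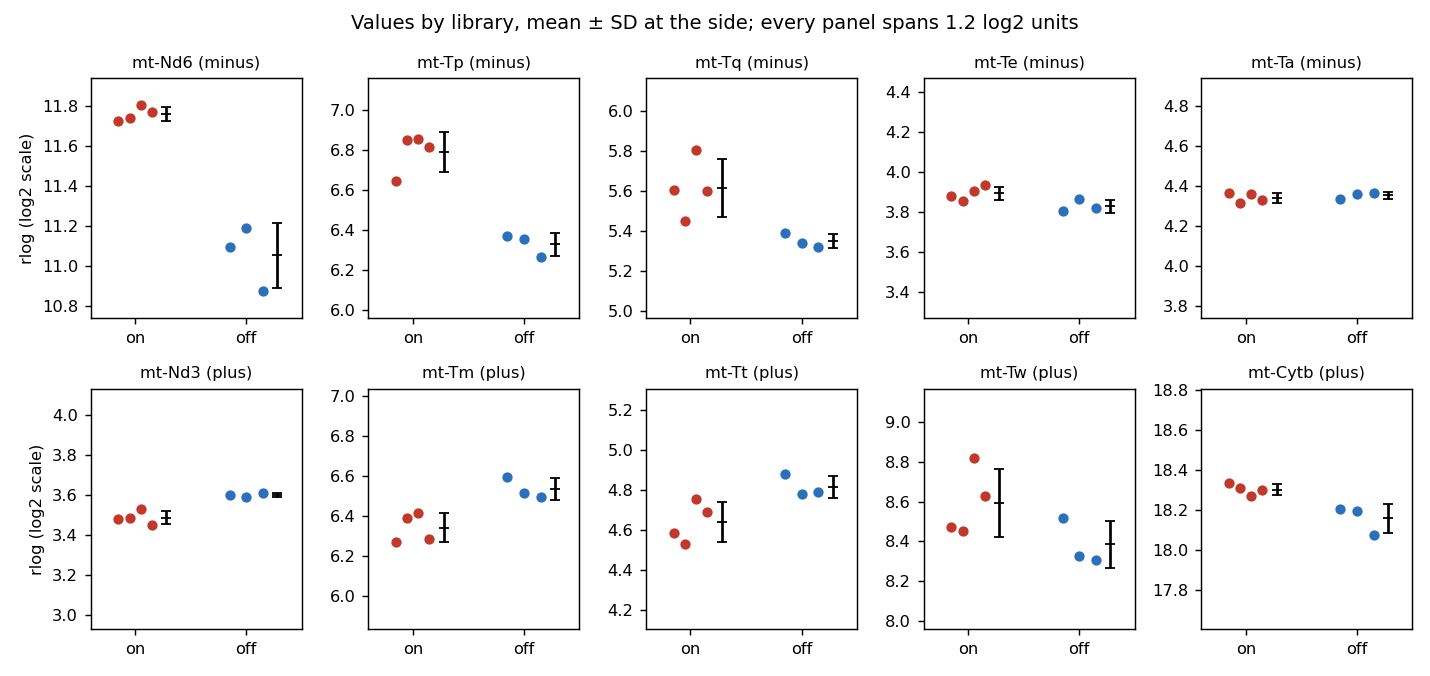
The rlog value (y axis, log2 scale, each panel spanning 1.2 units) in the 4 on (red) and 3 off (blue) libraries for 10 tested genes, with mean ± SD at the side of each group. The on and off libraries do not overlap for mt-Nd6, mt-Tp, mt-Tq, mt-Nd3, mt-Tm, mt-Tt and mt-Cytb, and overlap for mt-Te, mt-Ta and mt-Tw.

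On the plus strand the high protein genes did not pass, and their differences were all small and positive, from 0.01 to 0.14. The value for mt-Cytb was 18.33, 18.31, 18.27 and 18.30 in on replicates 1 to 4 and 18.20, 18.19 and 18.07 in off replicates 1 to 3. The groups did not overlap, and the difference was 0.14 ± 0.06 (SE, limma adjusted p = 0.184). In mt-Nd1 and mt-Nd2 too every on library lay above every off library, as in 7.13% of all tested genes. For mt-Nd2 this was narrow, with 17.3911 in on replicate 3 and 17.3906 in off replicate 2. Differences were 0.11 ± 0.06 for mt-Nd2, 0.10 ± 0.06 for mt-Nd1, 0.06 ± 0.06 for mt-Nd5, 0.06 ± 0.05 for mt-Nd4 and 0.01 ± 0.07 for mt-Co1 (SE). With quantile normalization, which gives genes of equal rank equal values, those of mt-Nd4 and mt-Nd5 turned negative (-0.05 and -0.02) and those of mt-Nd1 and mt-Cytb were 0.00. The 95% interval allowed changes from -0.14 to 0.15 for mt-Co1 and from 0.02 to 0.27 for mt-Cytb.

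The rRNAs showed no directed change. The small-subunit RNA mt-Rnr1 had values of 16.71, 16.72, 16.75 and 16.76 in on replicates 1 to 4 and 16.85, 16.77 and 16.57 in off replicates 1 to 3. The large-subunit RNA mt-Rnr2 had 17.35, 17.42, 17.46 and 17.39 in on and 17.53, 17.40 and 17.24 in off. For each, off replicate 1 was the highest library and off replicate 3 the lowest, so the off libraries enclosed the on libraries. Differences were 0.00 ± 0.06 and 0.02 ± 0.07 (SE, limma adjusted p = 0.984 and 0.919), and their sign depended on the library left out.

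Off replicate 3 was the lowest of the 7 libraries for all 9 members with a mean above 10, mt-Nd6 included. The members together took 5.51% ± 0.11 (SD, n = 4) of the summed linear values in on and 5.29% ± 0.22 (SD, n = 3) in off, an estimate since rlog values are shrunken; the range was 5.34% to 5.58% in on and 5.05% to 5.48% in off, which overlap. The minus-strand genes took 0.0100% ± 0.00027 (SD, n = 4) in on and 0.00625% ± 0.00058 (SD, n = 3) in off, which do not overlap, and mt-Nd6 is by far the highest of these genes.

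The gene mt-Nd3, a small complex I subunit inside the low block, had values of 3.48, 3.49, 3.53 and 3.45 in on replicates 1 to 4 and 3.60, 3.59 and 3.61 in off replicates 1 to 3. The groups did not overlap. It fell by 0.11 ± 0.03 (SE, limma adjusted p = 0.0493), and its nuclear copy differs at 1 base, so the value is uncertain. With 1 library left out it passed in 1 of 7 fits, that without on replicate 1 (adjusted p = 0.0233), and in the other 6 the adjusted p lay between 0.0916 and 0.169.

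Plus-strand tRNA genes gave no call, in either direction. The methionine tRNA gene mt-Tm had 6.27, 6.39, 6.42 and 6.29 in on replicates 1 to 4 and 6.60, 6.52 and 6.49 in off replicates 1 to 3, a difference of -0.19 ± 0.06 (SE, limma adjusted p = 0.0750). The threonine tRNA gene mt-Tt, which adjoins mt-Tp on the other strand, had 4.59, 4.53, 4.75 and 4.69 in on and 4.88, 4.78 and 4.79 in off, a difference of -0.18 ± 0.05 (SE, limma adjusted p = 0.0844). In both, every on library lay below every off library, which is the case for 8.09% of all tested genes. The tryptophan tRNA gene mt-Tw had 8.47, 8.45, 8.82 and 8.63 in on and 8.52, 8.33 and 8.31 in off, which overlap (0.21 ± 0.08, SE, limma adjusted p = 0.178). The isoleucine tRNA gene mt-Ti differed by 0.01 ± 0.06 (SE, limma adjusted p = 0.941). Without on replicate 1, mt-Tm (-0.17, adjusted p = 0.0489) and mt-Tw (0.25, adjusted p = 0.0437) passed, and 16.3% of all genes did so in that fit. In all, 9 of the 18 tested members had groups that did not overlap, where 15.2% of all tested genes had such groups. In 6 of them on lay above off, as in 7.13% of all tested genes, and in 3 below. An unadjusted limma p under 0.05 was found for 8 of the 18, against 20.7% of all tested genes.

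Both counts, of members and of all genes, moved with the settings of the fit. The Spearman correlation of each library's deviations with transcript length was 0.27 to 0.29 in on replicates 2 to 4 and -0.06 in on replicate 1. In the off libraries it was -0.32 to -0.23, and a correction for length is among the settings below. The members mt-Nd6 and mt-Tp alone were called with a minimum mean of 5 (3.01% of all genes), without the intensity trend (1.32%), with quantile normalization (2.37%), with the replicate number as a block (0.168%), after a correction for transcript length and GC content (0.531%), and without on replicate 3 (0.319%), on replicate 4 (0.475%), off replicate 1 (1.74%), off replicate 2 (0.24%) or off replicate 3 (0.414%). Of these, mt-Nd6 alone was called with the block and that correction together (0.0447%). The count was 3 with median centring (2.37%) or without on replicate 2 (0.978%), 4 with a robust prior (3.01%), and 6 with array weights (12.4%). Without any filter 0 of 32 members were called by limma (0.0202% of all genes).

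Relative to neighbours on the other strand within the same library, mt-Nd6 was higher in on. The pairs were built on mt-Nd6 and mt-Tp, whose differences were known and larger than those of the neighbours, so these values largely restate those differences and are no separate support for them. The genes mt-Te, mt-Ta and mt-Tq were not compared in this way. The value of mt-Nd6 minus that of mt-Nd5 was -5.88, -5.78, -5.65 and -5.83 in on replicates 1 to 4 and -6.44, -6.31 and -6.54 in off replicates 1 to 3, so all on libraries were above all off libraries. The mean was 0.65 higher in on (two-sided exact permutation p = 0.0286, the smallest that 35 labellings can give, and 0.0429 adjusted over 3 such comparisons). Against mt-Cytb on its other side the mean was 0.56 higher (exact permutation p = 0.0286, adjusted 0.0429). Per length, mt-Nd6 stood at 6.38% of mt-Nd5 in on and 4.07% in off, and at 2.37% and 1.60% of mt-Cytb. The value of mt-Tp minus that of mt-Cytb was 0.32 higher in on (exact permutation p = 0.0571, adjusted 0.0571), with on replicate 1 at -11.69, other on libraries at -11.48 to -11.41 and off libraries at -11.84 to -11.81.

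**Figure D5:**
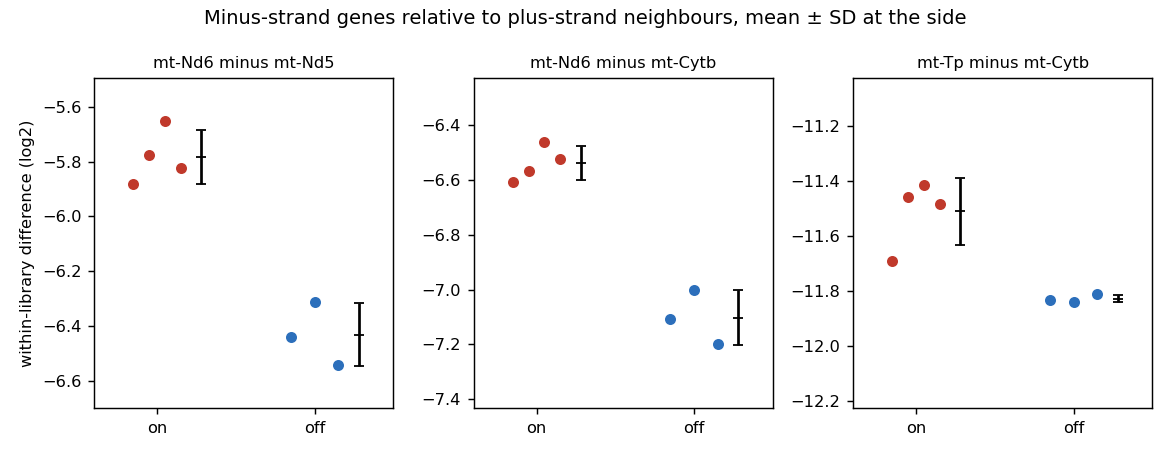
Within-library difference in rlog value (y axis, log2) between a minus-strand gene and a plus-strand neighbour in the 4 on (red) and 3 off (blue) libraries, mean ± SD at the side. In each of the 3 panels all on libraries lie above all off libraries, by 0.65 on average for mt-Nd6 against mt-Nd5.

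The library kit keeps strand, but which strand setting the counting used was not given in the sources used here. Reads from mt-Nd6 or the minus-strand tRNAs and reads from RNA of the opposite strand at the same positions are then not separable, and the part of such reads in the differences was not tested. Some nuclear-retained RNAs, whose share can follow RNA quality, differed between the groups as well. Of 11, 2 rose and 9 did not pass, where 0.816% of all tested genes were called higher, and the median was 0.19 against 0.00 over all tested genes. The genes that rose were Malat1, a nuclear long noncoding RNA, by 0.61 ± 0.11, and Snhg14, a host of small RNAs, by 0.29 ± 0.05 (SE, limma adjusted p = 0.0159 and 0.0115). The smallest differences in the list, named after the values were seen, were 0.02 for Gas5 and -0.0007 for Peg13. Whether each RNA of the list stays in the nucleus was not checked here. Malat1 and Snhg14 missed the limma threshold with no filter (adjusted p = 0.198 and 0.162) and with the replicate block (0.0703 and 0.148). So they did with the block and the GC and length correction (0.111 and 0.178). They also missed it without on replicate 3 (0.0610 and 0.0565), off replicate 2 (0.0940 and 0.0911) or off replicate 3 (0.0905 and 0.0788). Malat1 missed it with a robust prior too (0.123). Malat1 ran from 14.98 to 15.06 in off and from 15.61 to 15.86 in on replicates 2 to 4, with on replicate 1 between them at 15.21. The same library lay towards the off libraries in mt-Tp (6.64) and among the on libraries in mt-Nd6 (11.72). Of 12 RNAs without a poly(A) tail, 1, Rn7sk, was high enough to test, and it differed by 0.07 ± 0.07 (SE, limma adjusted p = 0.588), with no other tested. The part of RNA quality in the mitochondrial values was not tested.

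Nuclear genes that make and handle mitochondrial RNA gave few calls, which are read against the 2.6% of all genes called and the 20.7% with an unadjusted p under 0.05. Of 20 genes of mitochondrial transcription and DNA maintenance, 0 passed in limma and 0 had an unadjusted p under 0.05, with a median of 0.01. The mitochondrial RNA polymerase Polrmt differed by -0.10 ± 0.05, the rRNA methyltransferase Tfb1m by -0.08 ± 0.06 and the single-stranded DNA binding protein Ssbp1 by 0.07 ± 0.05 (SE, limma adjusted p = 0.308, 0.456 and 0.461).

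Of 31 genes of mitochondrial RNA processing and stability, 1 fell and 30 did not pass, 5 had an unadjusted p under 0.05, and the median was -0.01. Fastk is the founding member of a family of mitochondrial RNA binding proteins. It fell by 0.19 ± 0.05 (SE, limma adjusted p = 0.0479), opposite in sign to mt-Nd6, and a relation to the mt-Nd6 difference was not tested. Values of Fastk were 11.12, 11.07, 11.06 and 11.10 in on replicates 1 to 4 and 11.16, 11.35 and 11.31 in off replicates 1 to 3. Groups did not overlap, but on replicate 1 and off replicate 1 lay close together. With 1 library left out Fastk passed in 2 of 7 fits, those without on replicate 1 or off replicate 1, and in the others the adjusted p was 0.110 to 0.236. It also missed the threshold with median centring (0.0504), no intensity trend (0.0775), the GC and length correction (0.0959, difference -0.14), the replicate block (0.250), both together (0.352) or no filter (0.211). Slirp, an RNA binding partner that stabilizes mitochondrial mRNAs, differed by -0.15 ± 0.05 and Hsd17b10, a subunit of mitochondrial RNase P, by -0.15 ± 0.05 (SE, limma adjusted p = 0.101 and 0.122).

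Of 22 genes of mitochondrial aminoacyl-tRNA synthesis, which load the tRNAs, 0 passed in limma and 2 had an unadjusted p under 0.05, with a median of -0.02. These were Rars2 for arginine (0.12 ± 0.05) and Fars2 for phenylalanine (-0.16 ± 0.07) (SE, limma adjusted p = 0.185 and 0.194). Of 13 genes that follow mitochondrial mass or drive its formation, 1 fell and 12 did not pass, 4 had an unadjusted p under 0.05, and the median was -0.02. Esrra, a nuclear receptor that drives respiratory genes, fell by 0.23 ± 0.05 (SE, limma adjusted p = 0.0250), with 10.61, 10.51, 10.52 and 10.46 in on replicates 1 to 4 and 10.70, 10.83 and 10.74 in off replicates 1 to 3. With 1 library left out it passed in 2 of 7 fits, those without on replicate 1 or off replicate 1, and in the others the adjusted p was 0.0566 to 0.160. It also missed the threshold after the GC and length correction (0.0646), with the replicate block (0.226), with both (0.352) and with no filter (0.170). The chaperonin gene Hspe1 differed by -0.21 ± 0.05 (SE, limma adjusted p = 0.0548).

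Markers fitted the labelled tissue: all 5 neuronal, 4 astrocyte, 4 oligodendrocyte and 4 microglial genes reached the minimum level and 0 of them passed in limma, where 2 neuronal genes and none of the others had an unadjusted p under 0.05. The mean of the neuronal markers was 14.76 to 14.79 in on and 14.80 to 14.92 in off, so every on library lay below every off library. That of the oligodendrocyte markers was 14.34 to 14.57 in on and 14.42 to 14.59 in off. Astrocyte markers lay at 13.07 to 13.23 and 13.11 to 13.18, and microglial markers at 9.84 to 9.98 and 9.90 to 10.04. Blood markers lay at 4.99 to 5.46 in on and 5.09 to 5.47 in off. Choroid plexus markers lay at 10.19 to 10.41 and 10.25 to 10.32. Skeletal muscle markers, of which 2 of 4 reached the minimum level, lay at 3.48 to 3.54 and 3.54 to 3.56, and 1 had an unadjusted p under 0.05. None of these passed either, no marker was listed at 0, and the part of cell makeup in the mitochondrial values was not tested. In such tissue, fewer cells of a type and less RNA per cell cannot be told apart.

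Of the 15 nuclear copies, 2 were high enough to test and 0 passed in limma, with 1 at an unadjusted p under 0.05. Gm13340, which matches mt-Co1, had 5.91, 5.92, 5.82 and 5.82 in on replicates 1 to 4 and 6.02, 6.10 and 6.02 in off replicates 1 to 3 (-0.18 ± 0.05, SE, limma adjusted p = 0.0696). Every on library lay below every off library. Gm13341, which matches mt-Co2, differed by -0.03 ± 0.07 (SE, limma adjusted p = 0.847), and groups overlapped. The copy of mt-Nd6 on chromosome 4, Gm11408, lay at -2.37 in the mean, and 0% of the 50-base windows of mt-Nd6 are found in an annotated nuclear transcript.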

How the data were processed

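Brain RNA was sequenced in 7 libraries (4 on, 3 off). Per the labels' protocols, a Qiagen miRNeasy kit gave total RNA and a stranded poly(A) kit the libraries. The submitters' processing notes name DESeq2 1.16.1, STAR 2.5.2, BWA 0.7.14-r1136, cutadapt 1.9.1, Subread 1.5.3 and GRCm38; annotation release, strand setting and treatment of reads with several matches were not given in the sources used here. Deposited by the authors were rlog values on the log2 scale. Of 48526 genes, 13834 are listed at 0 throughout, and 48058 identifiers had a symbol.

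Genes with a mean of 3 or more were fitted with limma 3.58.1 (R 4.3.3): group term, intensity trend, two-sided, Benjamini-Hochberg adjustment, threshold 0.05, moderated SE. Nuclear copies were sought with BLAST 2.17.0. The members, lists and tests were chosen with earlier results of these data known. All 37 members are accounted for; list genes named are those past the threshold, otherwise those with the smallest p. Alternatives were other filters, median centring, quantile normalization, limma without trend, with array weights or a robust prior, a block for the replicate number, a correction for transcript length and GC content per library (mgcv 1.9.3), and leaving out each library.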

Additional observations from a re-analysis of the deposited data

Results flagged for a closer look

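In the 4 on libraries, a gap test over the 18 tested members set 1 library apart from the others for 2 genes, where chance does so for about 1 in 20 groups. On replicate 1 was lowest for mt-Ti, at 6.09 against 6.27 to 6.30. On replicate 3 was lowest for mt-Nd4, at 16.96 against 17.08 to 17.09. Neither gene passed in limma.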

How the results depend on the processing

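Of the members, 4 were called (3 higher, 1 lower). The count was 0 with no filter (7 genes called in all, against 466), where mt-Nd6 had an adjusted p of 0.0515 and mt-Tp of 0.0935. It was 2, mt-Nd6 and mt-Tp, with a minimum mean of 5, quantile normalization, no intensity trend (237 genes in all) or the GC and length correction (95 genes), 3 with median centring, 4 with a robust prior and 6 with array weights (2215 genes). With 1 library left out it ran from 2 to 6, and the count of all genes from 43 to 2917. Deviations of same-numbered libraries correlated at -0.23, -0.10 and 0.02, which gives no sign that replicate numbers pair the libraries. So few values cannot exclude a pairing. With the replicate block 2 members and 30 genes were called, and with the block and the GC and length correction 1 member, mt-Nd6, and 8 genes, mt-Tp then having an adjusted p of 0.0597. The difference of mt-Nd6 stayed between 0.62 and 0.80 and that of mt-Tp between 0.43 and 0.51 over their 17 alternatives, passing in 16 and 15. That of mt-Tq passed in 5 of 17 and that of mt-Nd3 in 3 of 16.

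Signs turned only for differences that did not pass. With the replicate block mt-Rnr1 was at -0.0056 and mt-Ti at -0.0067. Under quantile normalization mt-Rnr2 was at -0.029, mt-Ti at -0.0007, mt-Nd4 at -0.0458 and mt-Nd5 at -0.0206. With array weights mt-Co1 was at -0.0166. After the GC and length correction mt-Ti was at -0.0209, and at -0.0347 with the block too. With 1 library left out, mt-Rnr1 ran from -0.075 to 0.0609, mt-Rnr2 from -0.0577 to 0.0857, mt-Ti from -0.0351 to 0.0622, mt-Co1 from -0.0234 to 0.0280 and Gm13341 from -0.078 to 0.0212. The cause was not tested. Depth per library is unknown, and members under a mean of 3 cannot show a difference on this scale.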
